A study of Mus musculus with 6 samples.

Results

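The genes described here are 9 brown fat thermogenic genes, Ucp1, Cidea, Otop1, Dio2, Elovl3, Ppargc1a, Adrb3, Prdm16 and Zic1, read in mouse aorta. They were taken by name from the heat-producing machinery of brown fat, with earlier results of these data known, and all 9 were found among the 27815 gene identifiers. The data are 6 bulk RNA-seq libraries of polyadenylated RNA from aortas (strain C57BL/6), with 3 groups of 2 libraries. The ApoE group carried the ApoE-/- genotype, a loss of apolipoprotein E throughout the body, and was kept on chow to 16 months, when it had atherosclerotic calcification. The CKD group is a model of chronic kidney disease with calcification of the media, and its genotype field names no allele. At 8 weeks of age both poles of the left kidney were removed and, after 1 week, the right kidney; the mice then had a diet with 2% phosphate and drinking water with 0.45% NaCl for 4 weeks. The Ctrl group was wild type, with an age label of 2 months and no operation or special diet named in its labels. The CKD libraries also have an age label of 16 months, which conflicts with their protocol, so their age is uncertain. Genotype and age cannot be told apart in ApoE versus Ctrl, nor surgery, diet, salt and age where CKD is set against Ctrl. ApoE and CKD differ in genotype, surgery, diet, salt and possibly age, which cannot be told apart either.

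It is not stated that the libraries of a group came from separate animals. Every SD and p-value below therefore measures how far these libraries differ, possibly for technical reasons only. The labels also do not say whether the fat around the aorta was trimmed off. The libraries held 14.44 to 16.64 M reads, and levels are FPKM, that is, reads divided by exon length and by sequencing depth. The aorta label fitted its markers: summed smooth muscle genes (Acta2, Myh11, Tagln and Cnn1) reached 594 and 523 FPKM in ApoE, 3160 and 5600 in CKD and 7750 and 6950 in Ctrl. Summed macrophage genes (Cd68, Adgre1, Csf1r and C1qa) ran the other way, at 1730 and 1710 FPKM in ApoE, 325 and 478 in CKD and 178 and 154 in Ctrl. Of the smooth muscle genes, Tagln added little to the sum, at 1.08 to 9.37 FPKM over the libraries, and its exons overlap Gm48529 and Pcsk7. Adipocyte RNA was present in every library. The sum of 13 genes shared by white and brown adipocytes was 3470 and 3870 FPKM in ApoE, 8600 and 2890 in CKD and 486 and 1170 in Ctrl. The share of reads from mitochondrial genes was 9.66% and 10.89% in ApoE, 9.99% and 5.7% in CKD and 3.13% and 4.19% in Ctrl.

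Brown adipocytes make heat by letting protons return across the inner mitochondrial membrane through UCP1 without making ATP. Noradrenaline from sympathetic nerves starts this through beta-adrenergic receptors and cAMP, which releases fatty acids as fuel and raises the transcription of Ucp1, Ppargc1a and Dio2. In mice the fat that surrounds the thoracic aorta has many features of brown fat.

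The promoters of Ucp1, Ppargc1a and Dio2 are shown because cAMP, the signal that the product of Adrb3 sends, is known to act on these genes. Among these genes only Ppargc1a had a called difference. Ppargc1a was higher in CKD than in Ctrl or ApoE, whereas Adrb3 was higher in ApoE than in Ctrl or CKD. A link between these results was not tested. The RefSeq promoter table (GRCm38.p6) held 6 of the 9 genes, namely Ucp1, Ppargc1a, Dio2, Otop1, Prdm16 and Zic1. Its starts can differ from the gene coordinates given below, which come from GENCODE M21. For Dio2 the start used was 90739038, where those coordinates begin at 90738438. For Otop1 it was 38277404 against 38275972. The 250 bases before the annotated start were searched on both strands for TGACG, the core of the cAMP response element, for the whole palindrome TGACGTCA, which contains that core, and for AGGTCA, the nuclear receptor core site. TGACG was found in 3 of the 6, against 17.8% of 32851 promoters of the same length. The Dio2 window alone of the 6 held TGACGTCA, from 95 to 88 bases before the start, a word present in 1.55% of all promoters. The Ucp1 window held TGACG from 147 to 143 bases before the start and the Ppargc1a window held it on the opposite strand from 49 to 45 bases before the start. AGGTCA occurred in the Ucp1 window, from 14 to 9 bases before the start, and in 14.0% of all promoters. A match describes letters in these windows and is not a measured binding site. The windows are chr8:83290098-83290347 on the plus strand for Ucp1, chr5:51567726-51567975 on the minus strand for Ppargc1a and chr12:90739039-90739288 on the minus strand for Dio2. Each is written 5′ to 3′ on the strand of its gene, ending at the base before the start, with the TGACG or TGACGTCA match in capitals (read as CGTCA in Ppargc1a, where it lies on the opposite strand).
Ucp1: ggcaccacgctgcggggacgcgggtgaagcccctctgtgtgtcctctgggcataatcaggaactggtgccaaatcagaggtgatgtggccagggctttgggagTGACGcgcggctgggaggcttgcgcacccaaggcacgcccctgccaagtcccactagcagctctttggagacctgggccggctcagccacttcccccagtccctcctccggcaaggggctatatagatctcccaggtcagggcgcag
Ppargc1a: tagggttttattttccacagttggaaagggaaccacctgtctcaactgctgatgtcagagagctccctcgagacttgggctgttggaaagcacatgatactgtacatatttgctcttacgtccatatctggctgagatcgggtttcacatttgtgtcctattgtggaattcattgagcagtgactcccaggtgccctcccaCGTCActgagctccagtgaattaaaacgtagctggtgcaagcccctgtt
Dio2: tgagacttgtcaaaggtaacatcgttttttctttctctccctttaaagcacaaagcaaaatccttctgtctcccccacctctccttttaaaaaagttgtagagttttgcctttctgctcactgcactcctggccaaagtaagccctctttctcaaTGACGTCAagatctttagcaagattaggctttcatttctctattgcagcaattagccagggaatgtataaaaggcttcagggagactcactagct

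Ucp1 (ENSMUSG00000031710; GRCm38 chromosome 8, 83290352 to 83298452, plus strand) was among the abundant transcripts of these aortas. It stood at 236 and 147 FPKM in ApoE, 539 and 178 FPKM in CKD and 26.3 and 77.4 FPKM in Ctrl. Every ApoE and CKD library was above both Ctrl libraries, and the ApoE values overlapped those of CKD. By rank among the 27815 identifiers, with 1 the most abundant, Ucp1 was 174 and 291 in ApoE, 62 and 233 in CKD and 1974 and 586 in Ctrl. The order of the means was CKD (358 ± 255, SD, n = 2), ApoE (192 ± 63.3) and Ctrl (51.9 ± 36.2). The libraries of one group lay far apart: the higher over the lower was 1.61 in ApoE, 3.02 in CKD and 2.95 in Ctrl. On the log2(FPKM + 1) scale Ucp1 was 2.02 higher in ApoE than in Ctrl (SE 0.69, limma adjusted p = 0.0581) and 2.75 higher in CKD than in Ctrl (SE 0.69, limma adjusted p = 0.0722). Neither passed the threshold of 0.05, nor did ApoE versus CKD, at -0.73 (limma adjusted p = 0.437). The ApoE versus Ctrl difference passed in 4 of the 13 alternative settings tried. In whole tissue, fewer cells of a type and less RNA per cell cannot be told apart, here or in any result below.

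Cidea (ENSMUSG00000024526), a lipid droplet protein abundant in mouse brown adipocytes, stood at 214 and 278 FPKM in ApoE, 345 and 91.4 FPKM in CKD and 38.8 and 88.8 FPKM in Ctrl. The ApoE libraries were clear of Ctrl, whereas the second CKD library was just above the second Ctrl library. The log2 difference was 2.03 in ApoE versus Ctrl (SE 0.68, limma adjusted p = 0.0542), 1.58 for CKD versus Ctrl (SE 0.68, limma adjusted p = 0.183) and 0.45 for ApoE versus CKD (limma adjusted p = 0.626). None passed.

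Otop1 (ENSMUSG00000051596; chromosome 5, 38275972 to 38304217, plus strand) encodes otopetrin 1, a proton channel known from the inner ear and sour taste cells and also expressed in brown fat. Its levels were 8.06 and 6.08 FPKM in ApoE, 6.15 and 2.74 in CKD and 0.768 and 2.19 in Ctrl. Both models were above Ctrl in every library, with a small overlap between ApoE and CKD. Otop1 rose in ApoE versus Ctrl by 1.75 on the log2 scale (SE 0.40, limma adjusted p = 0.0166). The call was lost without the first ApoE library (adjusted p = 0.095), without the second (0.0674) and without the first Ctrl library (0.0806), and with the adipocyte covariate described below (0.41, limma adjusted p = 0.48). CKD versus Ctrl was 1.12 (limma adjusted p = 0.131) and ApoE versus CKD 0.63 (limma adjusted p = 0.254), neither called.

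**Figure D1:**
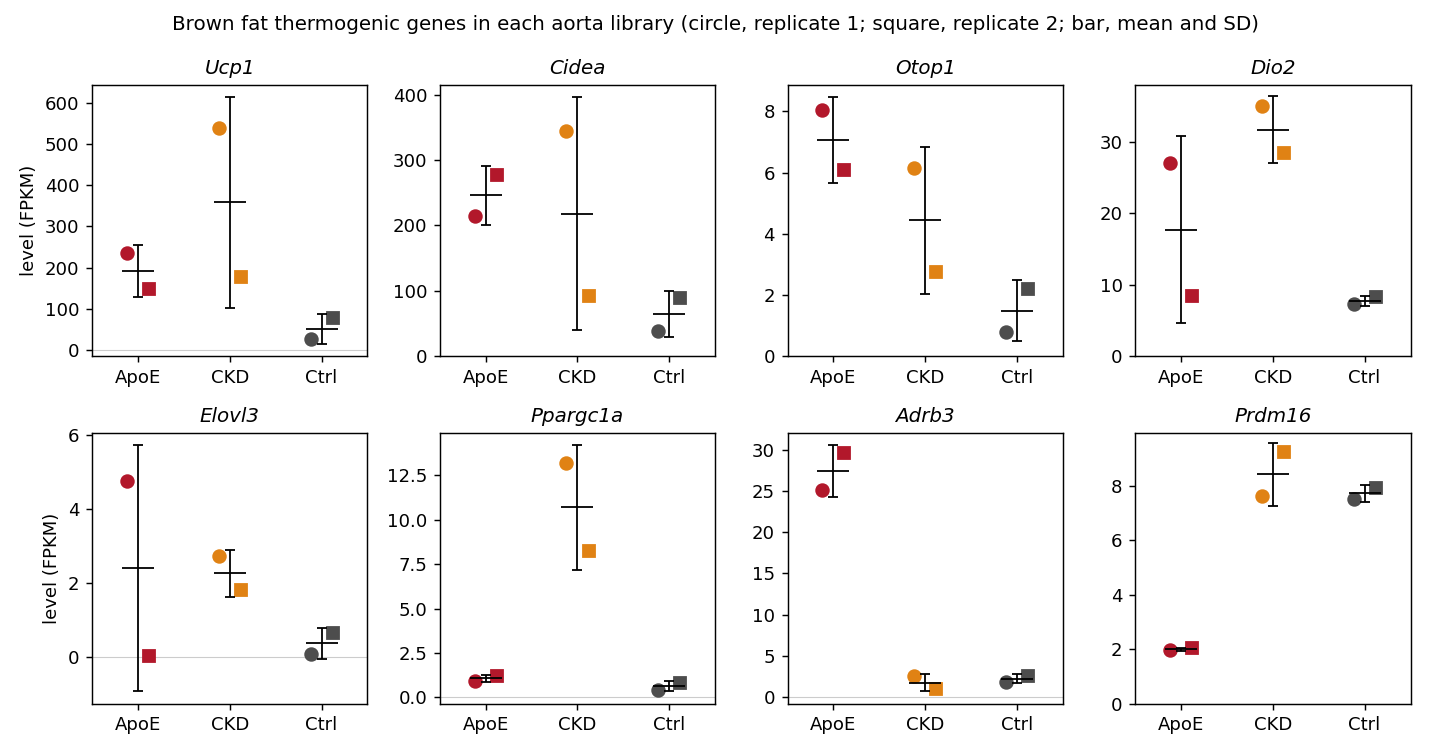
Level (FPKM, linear axis, own scale in each panel) of 8 brown fat genes in each library, with ApoE, CKD and Ctrl from left to right; circles are replicate 1, squares replicate 2, and bars the mean and SD. Ucp1, Cidea and Otop1 are higher in ApoE and CKD than in Ctrl with wide spread in CKD, Adrb3 stands high in ApoE at 25.1 and 29.6, Ppargc1a in CKD at 13.2 and 8.23, and Prdm16 is low in ApoE at 1.96 and 2.04; an SD bar below 0 reflects the spread of 2 values, not a level.

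Dio2 (ENSMUSG00000007682; chromosome 12, 90724552 to 90738438, minus strand) encodes the deiodinase that turns thyroxine into active T3 inside brown adipocytes. It stood at 27.0 and 8.42 FPKM in ApoE, 35.0 and 28.4 FPKM in CKD and 7.24 and 8.23 FPKM in Ctrl. Both CKD libraries were above all others, and of the ApoE libraries the second was near Ctrl and the first was not. The log2 difference was 0.90 in ApoE versus Ctrl (SE 0.48, limma adjusted p = 0.178), 1.90 in CKD versus Ctrl (SE 0.48, limma adjusted p = 0.0735) and -1.0 in ApoE versus CKD (limma adjusted p = 0.149), so no difference was called. The difference in ApoE versus Ctrl was 0.11 without the first ApoE library and 1.68 without the second.

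Elovl3 (ENSMUSG00000038754), a fatty acid elongase that cold induces in mouse brown fat, was the least even within a group. It stood at 4.75 and 0.045 FPKM in ApoE, 2.72 and 1.81 FPKM in CKD and 0.0805 and 0.663 FPKM in Ctrl. In reads this was about 149.4 and 1.3 in ApoE, 79.3 and 51.6 in CKD and 2.6 and 19.8 in Ctrl; its values were not whole multiples of 1 read with the exon length used here, so these read numbers are approximate. Both CKD libraries exceeded both Ctrl libraries, and the ApoE libraries lay at opposite ends. Its log2 differences were 0.87 (ApoE versus Ctrl), 1.27 (CKD versus Ctrl) and -0.40 (ApoE versus CKD), with limma adjusted p = 0.388, 0.309 and 0.706. It passed the filter on low values through 1 ApoE and 2 CKD libraries.

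Ppargc1a (ENSMUSG00000029167; chromosome 5, 51454250 to 51567726, minus strand) encodes PGC-1alpha, the coactivator that drives mitochondrial biogenesis and Ucp1 transcription. It stood at 0.914 and 1.2 FPKM in ApoE, 13.2 and 8.23 FPKM in CKD and 0.419 and 0.832 FPKM in Ctrl. These are 96 and 118 reads in ApoE, 1286 and 784 in CKD and 46 and 83 in Ctrl. Both CKD libraries stood apart from the other 4, and the lowest ApoE value was just above the highest Ctrl value. The mean of CKD (10.7 ± 3.51, SD, n = 2) was 17.1 times that of Ctrl (0.626 ± 0.292). Ppargc1a rose in CKD versus Ctrl by 2.83 on the log2 scale (SE 0.25, limma adjusted p = 0.0145), and it was 2.48 lower in ApoE than in CKD (log2 difference -2.48, SE 0.25, limma adjusted p = 0.00163). It was not called in ApoE versus Ctrl (0.35, limma adjusted p = 0.297). It passed the filter on low values through its CKD libraries and the second ApoE library. Without the CKD libraries it would not have passed, so both calls rest on a gene selected through the group where it is high. The CKD versus Ctrl call was lost without the first ApoE library (adjusted p = 0.0669), the second ApoE library (0.0668), the first CKD library (0.0544), the first Ctrl library (0.101) or the second (0.106), with log2 differences between 2.52 and 3.14 throughout. It was also lost with no filter (limma adjusted p = 0.0602), with only the CKD and Ctrl libraries (0.0672) and with the adipocyte covariate (0.357). The ApoE versus CKD call held in each of the 13 alternative settings.

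Muscle cells also make Ppargc1a. A list of 7 cardiomyocyte genes summed to 10.5 and 11 FPKM in ApoE, 32.3 and 36.2 in CKD and 12.2 and 13.2 in Ctrl. Of its 6 tested genes 3 (Myl7, Tnnt2 and Myh6) were called higher in CKD than in Ctrl, where 2.23% of all genes were. Myl7, the atrial myosin light chain gene, stood at 4.25 and 4.67 FPKM in ApoE, 11.5 and 14.4 in CKD and 1.12 and 0.448 in Ctrl. Tnnt2, the cardiac troponin T gene, stood at 1.13 and 0.694 FPKM in ApoE, 7.8 and 8.09 in CKD and 1.71 and 2.11 in Ctrl. Both were highest in CKD, as was Ppargc1a. Nppa, the gene of the list that was not tested, had 0 reads in each ApoE and CKD library and 1 in each Ctrl library. Skeletal muscle genes, 8 in number, summed to 4.32 and 4.76 FPKM in ApoE, 7.55 and 6.99 in CKD and 8.67 and 13.4 in Ctrl. Mesothelial genes (Msln, Upk3b and Lrrn4) summed to 6.66 and 4.03 FPKM in ApoE, 46.0 and 38.4 in CKD and 0.391 and 0.778 in Ctrl. The part of these cells in the Ppargc1a result was not tested.

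Adrb3 (ENSMUSG00000031489; chromosome 8, 27225776 to 27250616, minus strand) encodes the beta3-adrenergic receptor, through which noradrenaline stimulates adipocytes in mice, white and brown alike. It stood at 25.1 and 29.6 FPKM in ApoE, 2.52 and 1.03 FPKM in CKD and 1.85 and 2.6 FPKM in Ctrl. The ApoE libraries were far above all others, and CKD overlapped Ctrl. The mean of ApoE (27.4 ± 3.15, SD, n = 2) was 12.3 times that of Ctrl (2.23 ± 0.531) and 15.4 times that of CKD (1.77 ± 1.06). Adrb3 rose in ApoE versus Ctrl by 3.14 on the log2 scale (SE 0.28, limma adjusted p = 0.00078) and was 3.4 higher in ApoE than in CKD (SE 0.28, limma adjusted p = 0.00108). CKD versus Ctrl was -0.26 (limma adjusted p = 0.565). Both calls held in all 13 alternative settings. An antisense gene, Gm45470, overlaps Adrb3 and stood at 0.436 and 0.309 FPKM in ApoE and between 0.0182 and 0.151 in the CKD and Ctrl libraries; the kit did not mark strand, so shared reads cannot be assigned. The macrophage sum given above was likewise highest in ApoE, and its part in the Adrb3 result was not tested.

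Prdm16 (ENSMUSG00000039410; chromosome 4, 154316125 to 154636873, minus strand) encodes the transcriptional regulator that turns precursors toward brown fat and away from muscle. It is also made outside fat, in arterial endothelial and smooth muscle cells. It stood at 1.96 and 2.04 FPKM in ApoE, 7.6 and 9.23 FPKM in CKD and 7.5 and 7.92 FPKM in Ctrl. Both ApoE libraries were below all others, and CKD overlapped Ctrl. Prdm16 fell in ApoE, to a mean of 2.0 ± 0.0589 FPKM against 7.71 ± 0.296 FPKM in Ctrl (SD, n = 2 each; log2 difference -1.54, SE 0.13, limma adjusted p = 0.000651). It was also lower in ApoE than in CKD (-1.64, SE 0.13, limma adjusted p = 0.000979), and CKD versus Ctrl was 0.11 (limma adjusted p = 0.619). Both ApoE calls held in all 13 alternative settings. Smooth muscle genes moved in the same direction, with 4 of 4 called lower in ApoE in either comparison and a median log2 difference of -3.74 against Ctrl. Of all genes 24.3% were called lower in ApoE than in Ctrl and 21.2% lower in ApoE than in CKD. Endothelial genes (Pecam1, Cdh5 and Tie1) summed to 199 and 189 FPKM in ApoE, 126 and 210 in CKD and 280 and 233 in Ctrl. They did not move as one: in ApoE versus Ctrl Pecam1 was called lower and Cdh5 higher (median log2 difference 0.48). Cdh5 stood at 49.3 and 45.7 FPKM in ApoE against 27.1 and 21.8 in Ctrl. In ApoE versus CKD Cdh5 and Tie1 were called higher. The part of these cells in the Prdm16 result was not tested.

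Zic1 (ENSMUSG00000032368), a transcription factor used as a marker of the interscapular brown fat lineage, was at the edge of detection with 4 and 3 reads in ApoE, 2 and 1 in CKD and 0 and 0 in Ctrl. A count of 0 allows up to 0.0317 and 0.0348 FPKM in the Ctrl libraries, close to the 0.0441 and 0.0354 FPKM read in ApoE, and this limit covers counting error only. No difference was detectable at this depth, and Zic1 did not pass the filter on low values.

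Counted together, 8 of the 9 genes were tested. In ApoE versus Ctrl 2 were called higher (Adrb3 and Otop1) and 1 lower (Prdm16), where 44.1% of all 14074 genes tested were called, 19.8% higher and 24.3% lower. In CKD versus Ctrl 1 was called, Ppargc1a, higher, where 5.44% of all genes were called, 2.23% higher and 3.21% lower. In ApoE versus CKD 1 was called higher (Adrb3) and 2 lower (Prdm16 and Ppargc1a), where 39.7% of all genes were called, 18.5% higher and 21.2% lower. The shares of brown fat genes called are thus not far from those of all genes in the comparisons with ApoE. The libraries of ApoE stood above those of Ctrl without overlap for 6 of the 8 and below for 1, where 36.4% of all genes stood above and 43% below. Those of CKD stood above those of Ctrl for 6 of the 8 and below for 0, where 29.1% stood above and 35.1% below. Against CKD, ApoE stood above for 1 and below for 3, where 33% of all genes stood above and 38% below. The median log2 difference over the 8 was 1.33 in ApoE versus Ctrl, 1.42 in CKD versus Ctrl and -0.56 in ApoE versus CKD, beside medians over all genes of -0.07, -0.03 and -0.04. The comparisons with Ctrl share the same Ctrl libraries and are not independent.

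**Figure D2:**
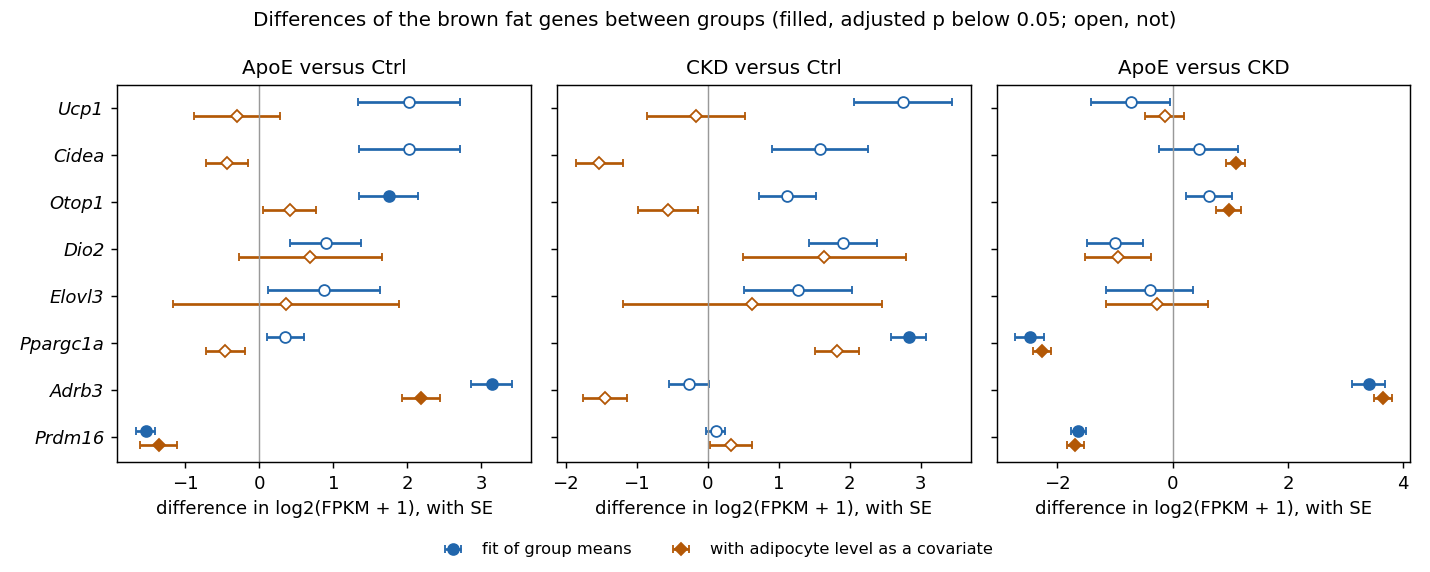
Difference in log2(FPKM + 1) with limma's SE for 8 brown fat genes (rows) in ApoE versus Ctrl, CKD versus Ctrl and ApoE versus CKD; circles are the fit of group means, diamonds the fit with the adipocyte level as a covariate, and filled symbols have an adjusted p below 0.05. Adrb3 and Prdm16 stay filled in both fits in the comparisons with ApoE, while the Ucp1, Cidea and Otop1 differences from Ctrl, 1.12 or more in the first fit, lie at 0.41 or lower in the second.

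The profile of Ucp1 across the libraries lay close to those of adipocyte genes. The 6 genes whose profile over the 6 libraries was nearest to that of Ucp1, by the root mean square difference of centred log2(FPKM + 1) among 7460 genes, were Cfd (0.268), Arxes2 (0.281), Fabp4 (0.291), Adipoq (0.293), Plin1 (0.331) and Slc36a2 (0.338). Cfd encodes adipsin, Fabp4 a fatty acid carrier, Adipoq the hormone adiponectin and Plin1 the lipid droplet coat protein, and these 4 are made in white and brown fat alike. Slc36a2, an amino acid transporter of the adipocyte surface, is on the list of beige adipocyte markers described below. Adipoq stood at 256 and 248 FPKM in ApoE, 681 and 200 in CKD and 25.3 and 70.1 in Ctrl. Set against it, Ucp1 was 92.5% and 59.2% of the Adipoq FPKM in ApoE, 79.1% and 89.2% in CKD and 104% and 110% in Ctrl. The Ctrl libraries, lowest in Ucp1 level, had the highest ratios.

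The other members kept step with adipocyte RNA less closely. Cidea was 83.8% and 112% of Adipoq in ApoE, 50.7% and 45.7% in CKD and 154% and 127% in Ctrl, with no overlap among the 3 groups and the order Ctrl, ApoE, CKD. Otop1 was 3.15% and 2.45% of Adipoq in ApoE, 0.904% and 1.37% in CKD and 3.04% and 3.12% in Ctrl, so that CKD alone stood low. Adrb3 was 9.83% and 11.9% of Adipoq in ApoE, 0.371% and 0.513% in CKD and 7.32% and 3.71% in Ctrl. Both CKD libraries were below all others by this ratio. Ppargc1a was 0.357% and 0.485% of Adipoq in ApoE, 1.94% and 4.12% in CKD and 1.66% and 1.19% in Ctrl, so that relative to adiponectin both ApoE libraries were lowest and the first CKD library was just above Ctrl. Dio2 was 10.6% and 3.39% in ApoE, 5.15% and 14.2% in CKD and 28.7% and 11.7% in Ctrl, the CKD range overlapping both others.

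A further fit took an adipocyte level as a covariate, the mean log2(FPKM + 1) of Adipoq, Plin1, Cidec and Adig. The level stood at 6.71 and 6.9 in ApoE, 8.23 and 6.55 in CKD and 3.91 and 5.12 in Ctrl. Its slope was free for each gene, so the fit is not a test of the ratios above. That level did not overlap between Ctrl and the models, so the fit extends its slope across a gap. Adrb3 remained higher in ApoE than in Ctrl (2.19, limma adjusted p = 0.0078) and than in CKD (3.65, limma adjusted p = 0.000591). Prdm16 remained lower in ApoE than in Ctrl (-1.36, limma adjusted p = 0.025) and than in CKD (-1.69, limma adjusted p = 0.00138), and Ppargc1a lower in ApoE than in CKD (-2.27, limma adjusted p = 0.000859). Cidea (1.09, limma adjusted p = 0.00585) and Otop1 (0.97, limma adjusted p = 0.0166) were called higher in ApoE than in CKD in this fit only. The Ucp1 difference was -0.30 in ApoE versus Ctrl, -0.16 in CKD versus Ctrl and -0.14 in ApoE versus CKD, with limma adjusted p from 0.768 to 0.975. In CKD versus Ctrl the covariate fit by limma called 0 of 14074 genes, against 1131 at an unadjusted p below 0.05, and the Ppargc1a value in that fit was 1.82 (adjusted p = 0.357).

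**Figure D3:**
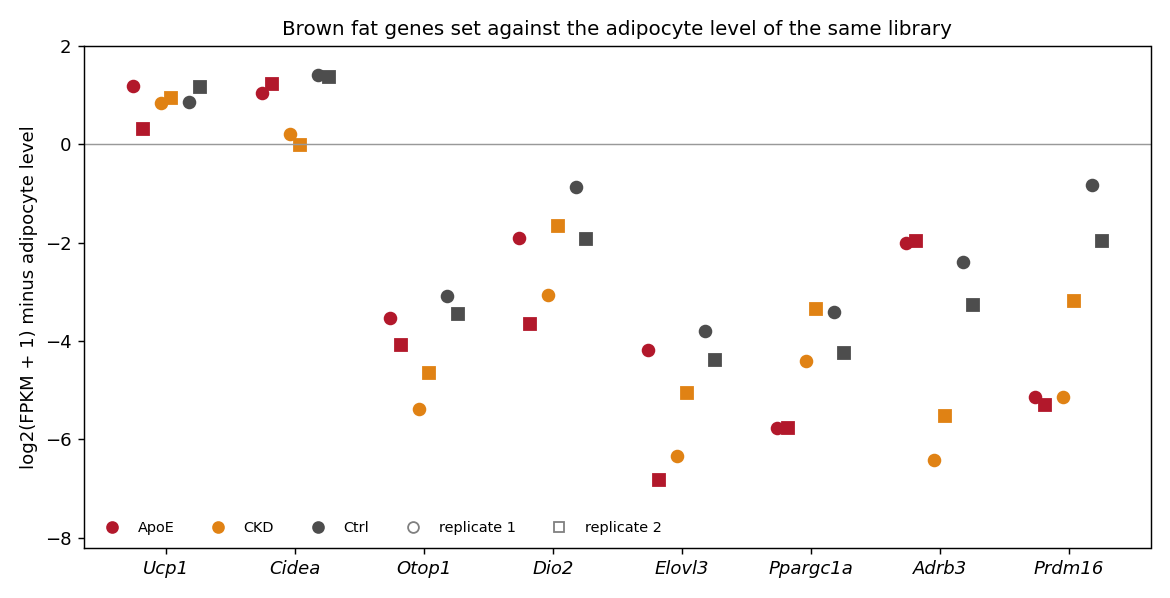
log2(FPKM + 1) of each brown fat gene minus the adipocyte level of the same library, for ApoE, CKD and Ctrl from left to right within a gene; circles are replicate 1 and squares replicate 2. Ucp1 lies between 0.31 and 1.18 in all 6 libraries, Adrb3 lies at -6.41 and -5.53 in CKD against -2.4 and -3.27 in Ctrl, and Ppargc1a lies at -5.77 and -5.76 in ApoE, below every CKD and Ctrl library.

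Around Adrb3, 13 genes of adrenergic and cAMP signalling were tested. Of these 3 rose and 3 fell in ApoE versus Ctrl (median log2 difference 0.04), where 19.8% of all genes rose and 24.3% fell, so the list was called about as often as genes at large. Limma called 0 in CKD versus Ctrl (median 0.29, with 8 at an unadjusted p below 0.05), where 5.44% of all genes were called. In ApoE versus CKD 2 were higher and 5 lower (median -0.06), where 18.5% of all genes were higher and 21.2% lower. Adrb1, the beta1-adrenergic receptor, was named after its values were seen. It stood at 2.77 and 2.0 FPKM in ApoE, 2.93 and 1.86 in CKD and 0.676 and 0.663 in Ctrl. It rose in ApoE versus Ctrl (1.01, SE 0.21, limma adjusted p = 0.0119), and CKD versus Ctrl had the same difference of 1.01 without passing (limma adjusted p = 0.0521). The Adrb1 call in ApoE was lost without the first ApoE library (limma adjusted p = 0.066), the first Ctrl library (0.0622) or the second (0.0606), and with the adipocyte covariate (0.64, limma adjusted p = 0.296). The Adrb1 values of ApoE and CKD all lay above those of Ctrl, while in Adrb3 the CKD values overlapped Ctrl.

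**Figure D4:**
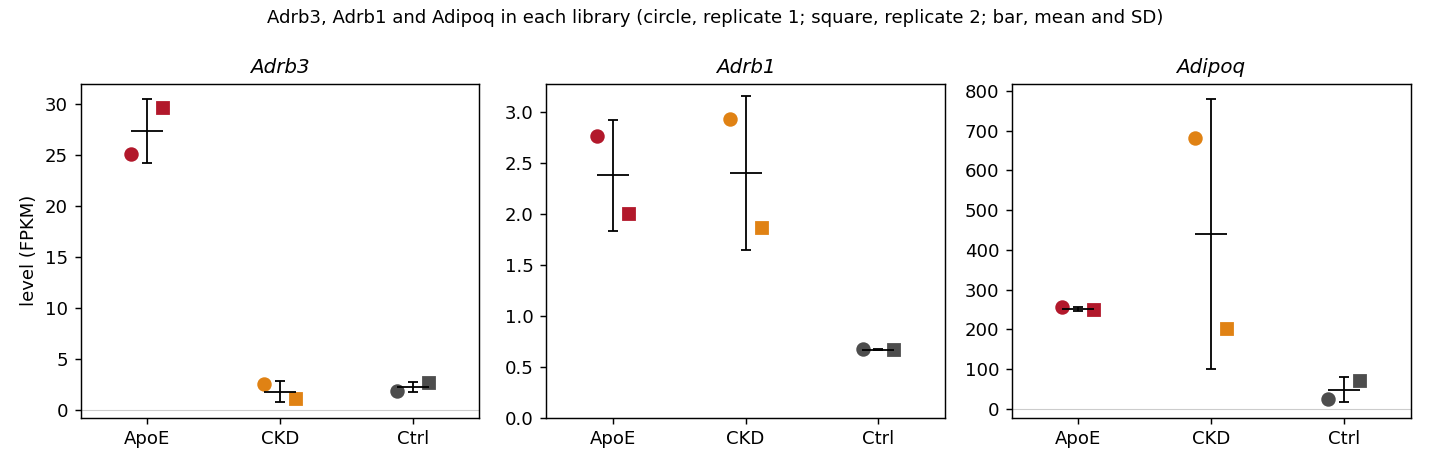
Level (FPKM, linear axis, own scale in each panel) of Adrb3, Adrb1 and Adipoq in each library, with ApoE, CKD and Ctrl from left to right; circles are replicate 1, squares replicate 2, and bars the mean and SD. Adrb3 is high in ApoE alone, Adrb1 is near 2 to 3 in both models, and Adipoq is raised in both models.

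Downstream of the receptors, the adenylyl cyclase gene Adcy3 rose in ApoE, at 12.1 and 18.1 FPKM against 4.26 and 4.98 FPKM in Ctrl (1.50, SE 0.21, limma adjusted p = 0.00348). With the adipocyte covariate limma called 0 of the 13 signalling genes higher and 2 lower in ApoE than in Ctrl, so the Adcy3 call was lost. In that fit 990 of all 14074 genes were higher and 910 lower. The cyclase genes Adcy5 and Adcy6, both known from smooth muscle and heart, fell. Adcy5 stood at 9.11 and 7.66 FPKM in ApoE, 120 and 133 FPKM in CKD and 181 and 196 FPKM in Ctrl (ApoE versus Ctrl -4.34, SE 0.16, limma adjusted p = 0.000172). Adcy5 and Adcy6 were called lower in ApoE in all 13 alternative settings, alongside the smooth muscle genes given above, whose part was not tested. Pde4d, a phosphodiesterase that breaks down cAMP, was lower in ApoE (2.33 and 1.27 FPKM) than in CKD (12.1 and 4.97 FPKM; -1.69, limma adjusted p = 0.0212, held in 10 of 13 settings). Npy, a peptide of sympathetic nerves that other cells also make, stood at 32.5 and 32.8 FPKM in ApoE, 3.35 and 3.06 in CKD and 0.106 and 0.117 in Ctrl. Th and Dbh, which make noradrenaline in sympathetic neurons, and Snap25, a synaptic gene of neurons in general, did not exceed 0.658 FPKM in any library. The part of nerve RNA in the Npy values was not tested.

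Of 11 listed transcription regulators of brown fat, which work beside PGC-1alpha and PRDM16, 9 were tested. In ApoE versus Ctrl 1 rose and 1 fell, where 44.1% of all genes were called. In CKD versus Ctrl 1 rose, where 5.44% were called, and in ApoE versus CKD 2 were lower, where 39.7% were called. Irf4, which partners PGC-1alpha in mouse brown fat and also acts in lymphocytes, stood at 4.12 and 2.11 FPKM in ApoE, 20.9 and 11.9 FPKM in CKD and 1.73 and 3.41 FPKM in Ctrl. It shared with Ppargc1a a CKD level above all other libraries, rising in CKD versus Ctrl (2.27, SE 0.38, limma adjusted p = 0.0384, held in 4 of 13 settings) and standing lower in ApoE than in CKD (-2.07, limma adjusted p = 0.00955, held in 12 of 13). Esrra, an orphan nuclear receptor that PGC-1alpha coactivates, rose in ApoE versus Ctrl (0.79, limma adjusted p = 0.0227, held in 7 of 13 settings), at 24.9 and 21.9 FPKM in ApoE against 13.7 and 12.5 FPKM in Ctrl. With the adipocyte covariate its difference was 0.42 (limma adjusted p = 0.436). Klf11, a Krüppel-like factor, fell in ApoE versus Ctrl (-0.61, limma adjusted p = 0.0307, held in 8 of 13 settings).

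Of 18 genes listed as fuel and mitochondrial effectors of brown fat, 8 rose in ApoE versus Ctrl and 0 fell (median log2 difference 1.08). Of all genes 19.8% rose and 24.3% fell. The 8 were Cox8b, Acaa2, Clstn3, S100b, Kcnk3, Slc25a20, Cox7a1 and Letmd1. Clstn3, S100b and Kcnk3 are not themselves fuel or mitochondrial genes. Set against Ctrl, 1 rose in CKD (median 1.17), where 2.23% of all genes rose. In ApoE versus CKD 1 was higher and 2 were lower (median 0.07), where 18.5% and 21.2% of all genes were. Cox8b, a cytochrome oxidase subunit of brown fat and striated muscle, stood at 258 and 340 FPKM in ApoE against 23.0 and 69.5 FPKM in Ctrl (2.85, SE 0.62, limma adjusted p = 0.0141, held in 9 of 13 settings). Clstn3 and S100b, which in mouse brown fat act together on sympathetic innervation, rose in ApoE versus Ctrl by 2.09 (limma adjusted p = 0.0154, held in 9 of 13 settings) and 1.09 (limma adjusted p = 0.00538, held in 12). S100b was at 9.47 and 12.6 FPKM in ApoE, 4.56 and 3.97 in CKD and 4.13 and 5.12 in Ctrl, so ApoE alone was raised. Pdk4, the kinase that turns off pyruvate dehydrogenase, was the member called in CKD versus Ctrl, at 231 and 130 FPKM in CKD against 26.1 and 54.9 FPKM in Ctrl (2.16, SE 0.42, limma adjusted p = 0.046, held in 3 of 13 settings). Cpt1b, which loads fatty acids into mitochondria, was lower in ApoE (0.54 and 0.598 FPKM) than in CKD (3.01 and 1.4 FPKM, log2 difference -0.98, limma adjusted p = 0.0318, held in 5 of 13 settings). It passed the filter on low values only through its CKD libraries, so the call rests on a gene selected through the group where it is high. With the adipocyte level as a covariate, limma called 0 of the 18 higher and 1 lower in ApoE than in Ctrl, and 6 higher and 3 lower in ApoE than in CKD. Of all 14074 genes that fit called 990 higher and 910 lower in ApoE than in Ctrl. In ApoE versus CKD it called 2605 higher and 2938 lower. Of the 3 secreted factors tested, Angptl4, an inhibitor of lipoprotein lipase, rose in ApoE versus Ctrl (1.99, limma adjusted p = 0.0202, held in 7 of 13 settings).

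Around Dio2, 5 genes of thyroid hormone handling were tested. In ApoE versus Ctrl 2 rose and 2 fell, where 19.8% of all genes rose and 24.3% fell. Limma called 0 in CKD versus Ctrl (with 1 at an unadjusted p below 0.05), where 5.44% of all genes were called. In ApoE versus CKD 1 was higher and 2 were lower, where 18.5% and 21.2% of all genes were. The receptor genes Thra and Thrb fell: Thrb stood at 3.48 and 3.01 FPKM in ApoE, 15.9 and 13 in CKD and 18 and 18 in Ctrl (ApoE versus Ctrl -2.17, SE 0.14, limma adjusted p = 0.000312), and Thra fell by 1.37 (log2 difference -1.37, limma adjusted p = 0.000929). Slc16a10, a transporter of aromatic amino acids and thyroid hormone, rose in ApoE versus Ctrl (1.22, limma adjusted p = 0.00195). With the adipocyte covariate limma called 0 of the 5 higher and 2 lower in ApoE than in Ctrl, so the Slc16a10 call was lost. In that fit 990 of all 14074 genes were higher and 910 lower. Thrsp, a thyroid hormone-responsive gene of fat-making tissues, was the most abundant of the 5, at 433 and 315 FPKM in ApoE, 232 and 59.2 in CKD and 19.0 and 63.0 in Ctrl. It rose in ApoE versus Ctrl (3.37, limma adjusted p = 0.0172, held in 9 of 13 settings), and CKD versus Ctrl, at 1.73, did not pass (limma adjusted p = 0.199). Thra overlaps Nr1d1 on the opposite strand, and its value is uncertain to that extent.

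The fatty acid synthesis genes, the setting in which Elovl3 works, were mostly called higher in ApoE. Of 9 tested, 7 rose in ApoE versus Ctrl (median 1.93), where 19.8% of all genes rose, 0 passed in CKD versus Ctrl by limma (median 0.00, with 1 at an unadjusted p below 0.05), and 7 were higher in ApoE than in CKD (median 1.71), where 18.5% of all genes were. With the adipocyte covariate 1 was called higher in ApoE than in Ctrl (median 0.64), where 990 of all 14074 genes were. In that fit 7 were called higher in ApoE than in CKD (median 2.16), where 2605 of all genes were. Scd1, the stearoyl-CoA desaturase of adipocytes and liver, stood at 1200 and 851 FPKM in ApoE, 204 and 87.2 FPKM in CKD and 66.5 and 250 FPKM in Ctrl (ApoE versus Ctrl 2.96, SE 0.69, limma adjusted p = 0.018; ApoE versus CKD 2.91, SE 0.69, limma adjusted p = 0.021; each held in 9 of 13 settings). Scd2, its paralog, stood at 65.2 and 46.9 FPKM in ApoE, 10.1 and 10.9 in CKD and 19.2 and 16.6 in Ctrl, and was called higher in ApoE in both comparisons in all 13 settings. Scd1 and Scd2 are similar in sequence, so reads of the 2 may be shared. Both CKD libraries were below both ApoE libraries in Scd1 and Scd2, while their general adipocyte sums of 8600 and 2890 FPKM lay above and below the ApoE sums of 3470 and 3870.

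The uncoupling protein relatives of Ucp1 did not move as one. Ucp2, which is abundant in macrophages and other immune cells, stood at 68.3 and 93.5 FPKM in ApoE, 35.5 and 44.3 FPKM in CKD and 16.1 and 17.6 FPKM in Ctrl. It rose in ApoE versus Ctrl (2.18, SE 0.20, limma adjusted p = 0.000827) and in CKD versus Ctrl (1.19, SE 0.20, limma adjusted p = 0.0392, held in 4 of 13 settings), in the order of the macrophage sums given above, whose part was not tested. Of the 7 carriers, 3 rose (Ucp2, Slc25a5 and Ucp3) and 2 fell (Slc25a27 and Slc25a4) in ApoE versus Ctrl, where 44.1% of all genes were called. Ucp2 and Slc25a5 were the 2 that rose in CKD versus Ctrl, where 5.44% were called. In ApoE versus CKD 1 was higher and 2 were lower, where 39.7% were called. Slc25a4, the adenine nucleotide carrier of muscle, fell in ApoE versus Ctrl (-0.85, limma adjusted p = 0.00834, held in 9 of 13 settings). Slc25a5, its widely expressed paralog, stood at 157 and 159 FPKM in ApoE, 198 and 156 in CKD and 80.8 and 92.5 in Ctrl. It rose in ApoE versus Ctrl (0.86, limma adjusted p = 0.0132, held in 8 of 13 settings) and in CKD versus Ctrl (1.02, limma adjusted p = 0.041, held in 4 of 13).

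UCP1-independent heat cycles were also read. Of 7 tested genes of creatine and calcium cycling, 3 rose and 2 fell in ApoE versus Ctrl, where 44.1% of all genes were called. In CKD versus Ctrl 1 fell, where 5.44% were called, and in ApoE versus CKD 4 were higher and 2 lower, where 39.7% were called. Gatm, the first enzyme of creatine synthesis, stood at 7.63 and 8.29 FPKM in ApoE, 1.08 and 2.75 in CKD and 0.921 and 1.03 in Ctrl (ApoE versus Ctrl 2.18, limma adjusted p = 0.00232). Gamt, the second enzyme, fell in CKD, at 4.45 and 4.41 FPKM against 9.16 and 7.87 FPKM in Ctrl (-0.81, limma adjusted p = 0.0448, held in 3 of 13 settings). Ryr2 and Atp2a2, the calcium release channel and pump of muscle and of calcium cycling in beige fat, fell in ApoE versus Ctrl by 1.89 and 1.61 on the log2 scale (limma adjusted p = 0.000803 and 0.00188), as did the smooth muscle genes.

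Of 5 tested beige adipocyte markers, 3 rose (Ear2, Slc36a2 and Tmem26) and 1 fell in ApoE versus Ctrl, where 19.8% of all genes rose and 24.3% fell. In CKD versus Ctrl 1 fell, where 3.21% of all genes fell, and in ApoE versus CKD 2 were higher, where 18.5% were. Tmem26 stood at 2.22 and 2.78 FPKM in ApoE, 0.166 and 0.223 in CKD and 0.387 and 0.138 in Ctrl (ApoE versus Ctrl 1.47, limma adjusted p = 0.00213). Tmem26 passed the filter on low values only through its ApoE libraries, so its call rests on a gene selected through the group where it is high. Ear2, listed as a beige marker and encoding a ribonuclease of eosinophils and macrophages, rose in ApoE to 32.3 and 62.1 FPKM against 2.34 and 2.94 FPKM in Ctrl (3.66, limma adjusted p = 0.00409). P2rx5, an ATP-gated channel, fell in ApoE versus Ctrl (-1.43, limma adjusted p = 0.000901) and in CKD versus Ctrl (-1.08, limma adjusted p = 0.0271, held in 4 of 13 settings). Of 7 tested genes listed as white-selective, 3 rose in ApoE versus Ctrl (Retn, Lep and Hoxc8), where 19.8% of all genes rose. Hoxc8 is a positional HOX gene that cells outside fat also make, and their part was not tested. In CKD versus Ctrl 1 fell (Hoxc8), where 3.21% of all genes fell. In ApoE versus CKD 1 was higher (Hoxc8), where 18.5% of all genes were. The Hoxc8 calls against Ctrl held in 4 of 13 settings in each comparison and the call against CKD in 13. Lep, the hormone leptin, stood at 5.2 and 8.28 FPKM in ApoE, 4.05 and 1.03 FPKM in CKD and 0.197 and 0.551 FPKM in Ctrl (ApoE versus Ctrl 2.48, SE 0.45, limma adjusted p = 0.00787, held in 11 of 13 settings). General adipocyte genes rose in ApoE versus Ctrl in 9 of 13 cases (median 2.33, beside a brown fat median of 1.33), where 19.8% of all genes rose. In CKD versus Ctrl 1 of the 13, Plin1, was called higher (median 2.52, brown fat 1.42), where 2.23% of all genes rose. In ApoE versus CKD limma called 0, with 1 at an unadjusted p below 0.05 (median -0.23, brown fat -0.56), where 39.7% of all genes were called. Among the listed paralogs of the brown fat genes, Cidec, the lipid droplet protein related to Cidea, stood at 119 and 174 FPKM in ApoE, 563 and 187 in CKD and 26.4 and 66.7 in Ctrl, and its differences did not pass (limma adjusted p = 0.0699 in ApoE versus Ctrl, 0.0568 in CKD versus Ctrl and 0.194 in ApoE versus CKD).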

How the data were processed

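Polyadenylated RNA of mouse aortas was sequenced in 6 libraries, and the groups follow the labels. The deposited values were taken as FPKM from the values themselves, and 5 deposited files stacked identifiers and values in 1 column of mixed text and numbers. The aligners TopHat2, HISAT2 2.1.0 and Bowtie2 2.2.3 and the build GRCm38 are listed, with no role, per the submitters' processing notes; a counter or gene annotation is not given in the sources used here. Symbols, coordinates and exon lengths came from GENCODE M21, with 27730 of 27815 identifiers annotated. Values multiplied by exon length were whole reads within 0.05 for 95.2% to 95.8% of values up to 20 reads, and gave 14.44 to 16.64 M reads per library; depth limits the low genes. The kit did not mark strand, so overlapping genes (with Dio2, Elovl3, Prdm16, Adrb3, Zic1, Adcy3, Adcy6, Esrra, Ucp2, Cpt1b, Thra, Atp2a2, Gk, Scd2 and Tagln) are uncertain.

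Genes reaching 1 FPKM in 2 or more libraries, 14074 in number, were fitted as log2(FPKM + 1) by group with limma 3.58.1 under R 4.3.3 (variance trend, robust spread), with Benjamini-Hochberg adjustment over all of them and calls below 0.05. Such fold changes understate the change of low genes. All groups shared 1 estimate of the spread. The fit was tested on simulated data. The brown fat genes and gene lists were chosen with earlier results of these data known, and 2 listed genes are not reported here and are left out of their lists' counts. Genes named beside the 9 are up to 3 called genes of smallest adjusted p per list and comparison, or the most abundant where none was called, and the 6 genes most like Ucp1. Alternatives were a pseudocount of 0.1, no filter, 2 other scalings, the 4 libraries compared alone, a replicate block, the adipocyte covariate and leaving out each library.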

Additional observations from a re-analysis of the deposited data

How the results depend on the processing

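Of the brown fat genes, 3 were called in ApoE versus Ctrl, 1 in CKD versus Ctrl and 3 in ApoE versus CKD. Over all 14074 genes these counts were 6208, 766 and 5592. They were 7021, 1 and 4245 with only the 4 libraries compared, 1900, 0 and 5543 with the adipocyte covariate, and 5159, 46 and 4556 with the replicate block. With no filter they were 5314, 1 and 4759 of 27815. For the brown fat genes the counts were 5, 0 and 3 with only the 4 libraries compared, and 3, 0 and 3 with no filter. They were 2, 0 and 5 with the adipocyte covariate, and 3, 1 and 3 with the replicate block, the pseudocount and both scalings. Leaving out 1 library gave 2 to 5, 0 to 3 and 3 to 5. At an unadjusted p below 0.05 limma kept 3 to 5 of the brown fat genes in CKD versus Ctrl in every setting, and over all genes its 766 calls there became 1 with no filter or with only the 4 libraries compared, 46 with the block, 1 when either ApoE library was left out, 38 without the first CKD library and 0 when either Ctrl library was left out (2097 without the first and 2560 without the second at an unadjusted p below 0.05), and 2416 without the second CKD library. Without either ApoE library, or with only the 4 libraries compared, the CKD versus Ctrl differences themselves were unchanged. Ppargc1a stayed at 2.83 and the median over all genes at -0.03. Those fits altered only the estimate of the spread on which the p-values rest. The cause of the other changes was not tested. Replicate numbers only name libraries: the correlation of replicate differences between groups was -0.1, 0.05 and -0.23, and the block lost 12 calls of the genes named.

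Signs turned in single settings, all of them short of a call. With the adipocyte covariate ApoE versus Ctrl was -0.30 for Ucp1, -0.44 for Cidea, -0.46 for Ppargc1a and -0.55 for Cidec. CKD versus Ctrl was -0.16 for Ucp1, -1.53 for Cidea, -0.56 for Otop1, -2.77 for Scd1, -1.74 for Thrsp and -0.01 for Adipoq, and ApoE versus CKD was 0.03 for Cfd and 0.08 for Adipoq. Adipoq and Cidec are among the genes that make up that covariate, so their values in this fit are not independent of it. Leaving out 1 library at a time, ApoE versus Ctrl ran from -0.36 to 2.1 for Elovl3, with the low end without the first ApoE library. CKD versus Ctrl ran from -0.02 to 0.23 for Prdm16 and -0.66 to 0.14 for Adrb3 (the sign turned without the second CKD library), and from -0.90 to 0.99 for Scd1, which was also below 0 without the first CKD library (-0.56). ApoE versus CKD ran from -1.63 to 0.83 for Elovl3, turned without the second ApoE library, from -0.50 to 1.41 for Cidea and -0.23 to 0.23 for Adrb1, turned without the second CKD library (Adrb1 also without the first ApoE library, -0.16). Without the first CKD library the sign turned for Ucp1 (-1.53 to 0.06), Vegfa (-1.08 to 0.01), Cfd (-1.29 to 0.24) and Adipoq (-1.43 to 0.33). With the scaling that leaves out mitochondrial and top genes, Adrb1 was -0.03 in ApoE versus CKD and the median of all genes was -0.13 in ApoE versus Ctrl.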

Other observations

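The CKD libraries differed from each other by gene. The first held 3.02 times the Ucp1 level of the second, 3.77 times its Cidea, 2.25 times its Otop1 and 2.46 times its Adrb3. The same ratio was 1.6 for Ppargc1a, 1.5 for Elovl3 and 1.24 for Dio2, and Prdm16 was higher in the second, by 1.21. In ApoE, Dio2 differed by 3.21 between libraries and Adrb3 by 1.18.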
